A study of Homo sapiens with 3 samples.

Results

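The genes of mitosis, the kinetochore and the spindle were followed in Huh7 cells, an established human hepatoma line, left untreated or exposed for 24 h to chlorogenic acid (CA), a plant polyphenol. A list of 57 genes was taken by symbol, from CDK1 and the mitotic cyclins to condensin subunits, and set against all 19740 gene symbols that were matched to the array. The study examined CA as an agent that slows the growth of tumor cells, and the comparisons here ask whether slower growth shows in the transcripts of G2 and mitosis. The groups were untreated cells, CA 50 μM and CA 100 μM, and per the study's methods the untreated controls received the solvent, DMSO. A single one-colour Agilent array was read per group from Cy3-labelled total RNA, which makes 3 arrays without replicates. Hence no test between groups could be made, and every difference given is a difference between 2 arrays. Beyond this, a larger share of cells in mitosis and more RNA per mitotic cell cannot be told apart in bulk RNA. By flow cytometry of Huh7 cells, the study reports fewer cells in S phase after CA and a stable share in G2/M. That measurement included the lower but not the higher dose used here. Whether the cultures of these arrays had the same shares was not tested.

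Of the 57 genes, 56 were matched to at least 1 probe through the RefSeq accessions of the probes, and no probe was matched to UBE2C. These genes had 72 probes, and 42 genes had 1 probe, 12 had 2 and 2 had 3. In 55 genes at least 1 probe was well above background on all 3 arrays by the flag of the scanner software, and these are the genes for which ratios are given. The single probe of SPC24, a subunit of the NDC80 complex, was not well above background on any array, at 3.15, 3.12 and 3.56 intensity units, so that no ratio is given for it. Values per array are given as relative signal, which is the processed intensity divided by the 75th percentile of the array (1059 units in untreated cells, 1207 at CA 50 μM and 1249 at CA 100 μM). Ratios are log2 differences of relative signal between 2 arrays, and the brightest measured probe stands for a gene that had several. Relative signals of different probes are not comparable with each other.

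As a check of the label, genes of hepatocytes and hepatoma such as ALB and AFP were looked up. Of these, 8 of 10 were well above background in untreated cells and 9 of 10 at each dose. HNF4A was not well above background on the untreated and CA 100 μM arrays. TF was not measured on the untreated and CA 50 μM arrays, where its single spot had an outlier flag. At CA 100 μM TF had 13078 units. The summed intensities of the hepatocyte and hepatoma genes were between 372792 and 379407 units on the 3 arrays. Only the CA 100 μM sum, 374773 units, includes TF, so that the 3 sums do not cover the same genes. All 5 leukocyte and 3 endothelial marker genes also had a probe well above background on each array, with summed intensities of 829 to 1035 and 793 to 1086 units, and of 4 stroma markers 2 or 3 did, with 117 to 197 units. The leukocyte, endothelial and stroma sums were higher on the treated arrays, before scaling, and their part in the results was not tested. Areas called disturbed, in which dim probes were bright on a single array, held 5.29% of the gene spots of the CA 100 μM array. On the untreated and CA 50 μM arrays they held 0.139% and 0.044%. At CA 100 μM these areas covered 10 spots of 9 probes of the mitosis genes, among them the single spots of TPX2, PRC1 and NDC80. They also covered the spot of COL1A1, the stroma marker well above background at CA 100 μM alone. COL1A1 had 51.7 units there, against 2.62 in untreated cells and 3.27 at CA 50 μM.

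Mitosis is started by CDK1 bound to cyclins A and B, carried forward by the Polo and Aurora kinases, and held at metaphase by the spindle checkpoint until every kinetochore is attached. The anaphase-promoting complex with CDC20 then marks securin and cyclin B for destruction, separase cuts cohesin, and the central spindle and contractile ring divide the cell. Most of these genes are transcribed late in the cycle. The MuvB proteins, joined by MYBL2 (B-MYB) and FOXM1, activate them in G2, whereas in resting cells the DREAM complex represses them, and both act largely through a promoter element called the cell cycle genes homology region (CHR), often next to CCAAT boxes bound by NF-Y.

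These elements were looked for in the RefSeq promoters (GRCh38.p14, 250 bases before and 50 bases after the start of the gene), since they are a feature that the choice of genes did not use. Promoters were given for 50 of the 57 genes, the others being AURKA, BUB3, TTK, TPX2, BIRC5, FOXM1 and UBE2C. The CHR was searched as TTTGAA or TTCGAA and the CCAAT box as CCAAT, each on both strands. A CHR was found in 38 of 50 promoters (76.0%), against 16.6% of all 27305 promoters of that length, and within the last 50 bases before the start or after it in 32 of 50 (64.0%), against 5.05%. A CCAAT box was found in 36 of 50 (72.0%), against 35.7%, and at least 2 of them in 23 of 50 (46.0%), against 11.3%. A match is a description of the letters and no evidence of binding. Of the 9 genes at least 1.2-fold higher at CA 50 μM, 8 had a promoter given, with a CHR in 5 of 8 (62.5%) and near the start in 4 of 8 (50.0%), and AURKB, CDC25B and MYBL2 had none. The promoters of PLK1, CDC20, CKAP2L and KIF4A are shown as examples of these genes that carry both elements, those of CCNB2 and PRC1 because they carry the same elements and were not, and that of MYBL2 because it had the highest ratio of the list and holds neither element. Each runs from 130 bases before the start to 20 bases into the gene, written in the direction of the gene, and capitals mark the CHR and the CCAAT boxes on either strand.
PLK1 (chr16:23678759-23678908, plus strand): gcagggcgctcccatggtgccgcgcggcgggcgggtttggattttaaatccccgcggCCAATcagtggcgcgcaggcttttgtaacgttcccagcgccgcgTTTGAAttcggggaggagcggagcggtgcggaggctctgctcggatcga
CDC20 (chr1:43358851-43359000, plus strand): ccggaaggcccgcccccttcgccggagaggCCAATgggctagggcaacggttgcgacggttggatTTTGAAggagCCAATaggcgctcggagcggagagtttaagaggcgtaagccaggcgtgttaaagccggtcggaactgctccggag
CKAP2L (chr2:112764590-112764739, minus strand): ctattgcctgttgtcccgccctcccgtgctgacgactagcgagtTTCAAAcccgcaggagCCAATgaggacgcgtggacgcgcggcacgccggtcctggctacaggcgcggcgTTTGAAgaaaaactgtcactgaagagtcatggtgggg
KIF4A (chrX:70289974-70290123, plus strand): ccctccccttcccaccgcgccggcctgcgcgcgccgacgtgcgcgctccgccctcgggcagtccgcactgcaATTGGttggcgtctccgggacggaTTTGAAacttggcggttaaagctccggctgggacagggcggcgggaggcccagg
CCNB2 (chr15:59105016-59105165, plus strand): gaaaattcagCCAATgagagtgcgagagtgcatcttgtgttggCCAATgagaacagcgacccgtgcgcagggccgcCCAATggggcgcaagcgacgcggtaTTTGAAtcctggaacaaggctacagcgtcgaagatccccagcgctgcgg
PRC1 (chr15:90994516-90994665, minus strand): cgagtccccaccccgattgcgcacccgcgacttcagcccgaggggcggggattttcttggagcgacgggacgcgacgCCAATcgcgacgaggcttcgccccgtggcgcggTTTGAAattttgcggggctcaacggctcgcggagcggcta
MYBL2 (chr20:43666984-43667133, plus strand): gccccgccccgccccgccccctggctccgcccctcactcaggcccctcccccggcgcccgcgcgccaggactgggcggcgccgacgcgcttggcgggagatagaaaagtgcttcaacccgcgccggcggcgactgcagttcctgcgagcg
The element stood in both kinds of promoter. The 32 genes with a CHR within 50 bases of the start had median log2 ratios of -0.041 and 0.018 at the lower and the higher dose, and the 17 measured genes without it had 0.023 and 0.060.

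At CA 50 μM the mitosis genes were spread about the level of untreated cells, with a few genes apart from the rest. Their median log2 ratio was -0.020, against -0.038 over all 14700 genes measured in this comparison, and 27 of 55 were above 0 (49.1%), against 43.7% of all genes. The genes ranged from -0.30 for SMC2 to 0.83 for MYBL2. At least 1.2-fold higher were 9 of 55 (16.4%), against 16.4% of all genes, and these were MYBL2, PLK1, CKAP2L, AURKB, CDC20, MKI67, CDC25B, TPX2 and KIF4A. At least 1.2-fold lower were PTTG1, NUSAP1 and SMC2, which is 3 of 55 (5.45%), against 16.1% of all genes. At least 1.5-fold higher were 2 of 55 (3.64%), namely MYBL2 and PLK1, against 4.15%, and none was 1.5-fold lower, against 2.17%. No gene of the list was changed 2-fold by its brightest probe, where 0.456% of all genes were higher and 0.517% lower by that size. The median changed sign with the processing, between -0.070 when arrays were centred on the median and 0.044 after cyclic loess, so that no direction is assigned to the group. The number of genes above 0 moved with it, from 27 of 55 to 21 when centred on the median and 35 after cyclic loess. Of all genes, 36.9% and 44.9% were above 0 under these 2 settings. Genes close to 0 thus have no settled direction, and among them CDK1 (0.049 after cyclic loess) and CCNB1 (-0.0062 when centred on the median) changed sign.

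At CA 100 μM the ratios were closer to 0, from -0.12 for SMC2 to 0.43 for CKAP2L. The median was 0.035, against -0.031 over all 14640 genes measured, and 35 of 55 genes were above 0 (63.6%), against 42.3%. At least 1.2-fold higher were CKAP2L, MYBL2, AURKB and MKI67, which is 4 of 55 (7.27%), against 8.22% of all genes. None was at least 1.2-fold lower, against 10.4%, and none was changed 1.5-fold, against 1.65% higher and 1.54% lower among all genes, or 2-fold, against 0.451% and 0.205%. The background correction by normexp turned this picture, with a median of -0.14 for the list. At least 1.2-fold lower were then 15 of 55 genes, against 16.6% of all genes. Normexp also moved the median of all genes at CA 100 μM to 0.18, so that relative to it the list lay lower by 0.33. The other 9 alternatives gave medians between 0.015 and 0.076 and 0 genes at least 1.2-fold lower, against 9.03% to 15.1% of all genes. The genes above 0 were 16 of 55 after normexp and 48 after cyclic loess, in place of 35. Of all genes, 60.8% were above 0 after normexp and 48.7% after cyclic loess. Signs given below for ratios near 0 at this dose depend on the scaling, and those of CDK1 (-0.28), CCNB1 (-0.22), AURKA (-0.23), TOP2A (-0.14) and FOXM1 (-0.099) were below 0 after normexp.

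**Figure D1:**
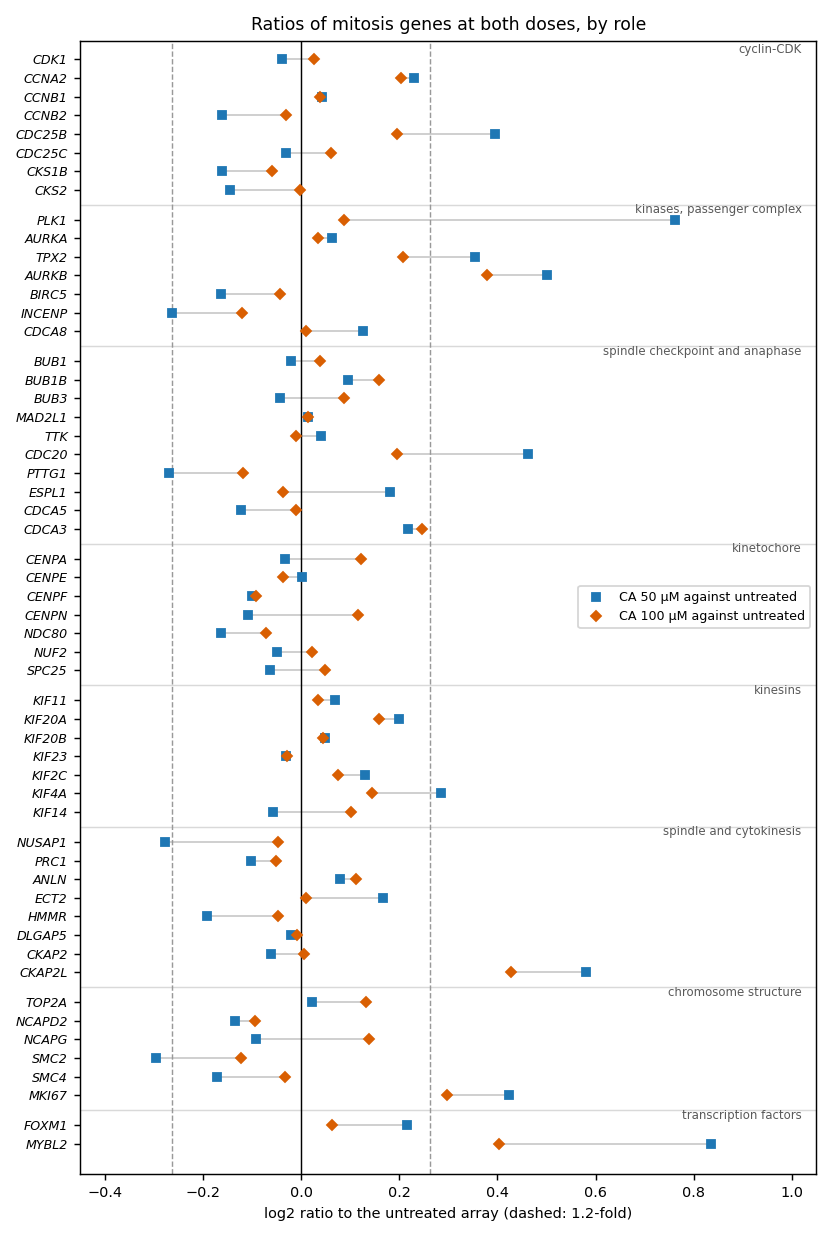
log2 ratio of each of the 55 measured mitosis genes to the untreated array (x axis) at CA 50 μM (squares) and CA 100 μM (diamonds), grouped by role (rows), with dashed lines at 1.2-fold and 1 array per group. Most genes lie between the dashed lines, 9 lie right of them at CA 50 μM and 3 left of them, and MYBL2 and PLK1 stand farthest to the right.

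The signal of a probe bears on these ratios. None of the 55 genes lay in the dimmer 2 of 5 equal classes of signal, 8 lay in the middle class, 18 in the next and 29 in the brightest, and the SD of the ratios of all genes at CA 50 μM went from 0.42 in the dimmest to 0.19 in the brightest class. Fewer genes past a given fold are thus found among bright probes in general. At CA 50 μM the 8 mitosis genes of the middle class had a median of 0.46, against -0.014 over all genes of that class. The 18 genes of the next class had 0.083 against -0.051, and the 29 of the brightest class had -0.064 against -0.11. At CA 100 μM these medians were 0.22 against -0.0093, 0.052 against -0.027 and -0.0028 against -0.061. In each class the list thus had a higher median than all genes, and within the list dimmer probes had higher ratios. Across the 55 genes the correlation of ratio and mean signal was -0.56 (Pearson) and -0.53 (Spearman) for CA 50 μM, then -0.55 and -0.50 for CA 100 μM, against -0.13 and -0.16, and -0.067 and -0.062, across all genes. These are descriptions across genes of the same arrays, which are not independent.

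**Figure D2:**
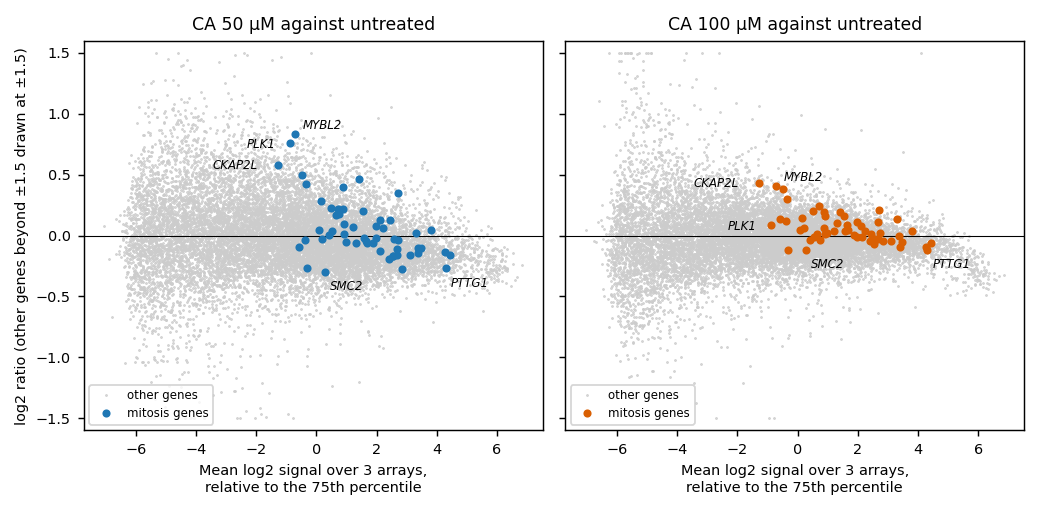
log2 ratio to the untreated array (y axis) against the mean log2 signal of the representing probe over the 3 arrays, relative to the 75th percentile (x axis), for mitosis genes (coloured) and all other genes measured (grey), at CA 50 μM (left) and CA 100 μM (right). Mitosis genes with dimmer probes lie higher, up to 0.83 for MYBL2 at CA 50 μM, and those with brighter probes lie near or below 0.

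Among the cyclins and CDK1 with their activators, CDK1 and cyclin B1 were among those that differed least between the arrays. CDK1, the kinase itself, had relative signals of 6.61 in untreated cells, 6.44 at CA 50 μM and 6.73 at CA 100 μM, with log2 ratios of -0.039 and 0.025. Cyclin B1 (CCNB1), its main partner at mitotic entry, had 13.7, 14.1 and 14.1 by a probe printed 10 times, and 1.99, 1.96 and 1.94 by its other probe. The CCNB1 ratios were thus 0.043 and 0.039 by the first and -0.025 and -0.040 by the second probe. Cyclin A2 (CCNA2), which acts from S phase into early mitosis, was lowest on the untreated array, at 1.28, 1.5 and 1.47, with ratios of 0.23 and 0.20. CDC25B, a phosphatase that activates CDK1, had 1.61, 2.11 and 1.84 and the highest ratio of this group at CA 50 μM, 0.40, with 0.19 at CA 100 μM. In contrast, CDC25C, a phosphatase of the same family, had 1.14, 1.12 and 1.19. The CDK subunit CKS1B had 22.7, 20.3 and 21.7, the lowest ratios of the group at -0.16 and -0.059, whereas its second probe gave 0.017 and 0.14. CKS2, a close paralogue, had ratios of -0.14 and -0.0028, and cyclin B2 (CCNB2) had -0.16 and -0.031. Probe sequences were not used here, so that signal shared between such paralogues was not examined. Of the 8 genes, 3 were above 0 at CA 50 μM and 5 at CA 100 μM, against 43.7% and 42.3% of all genes.

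**Figure D3:**
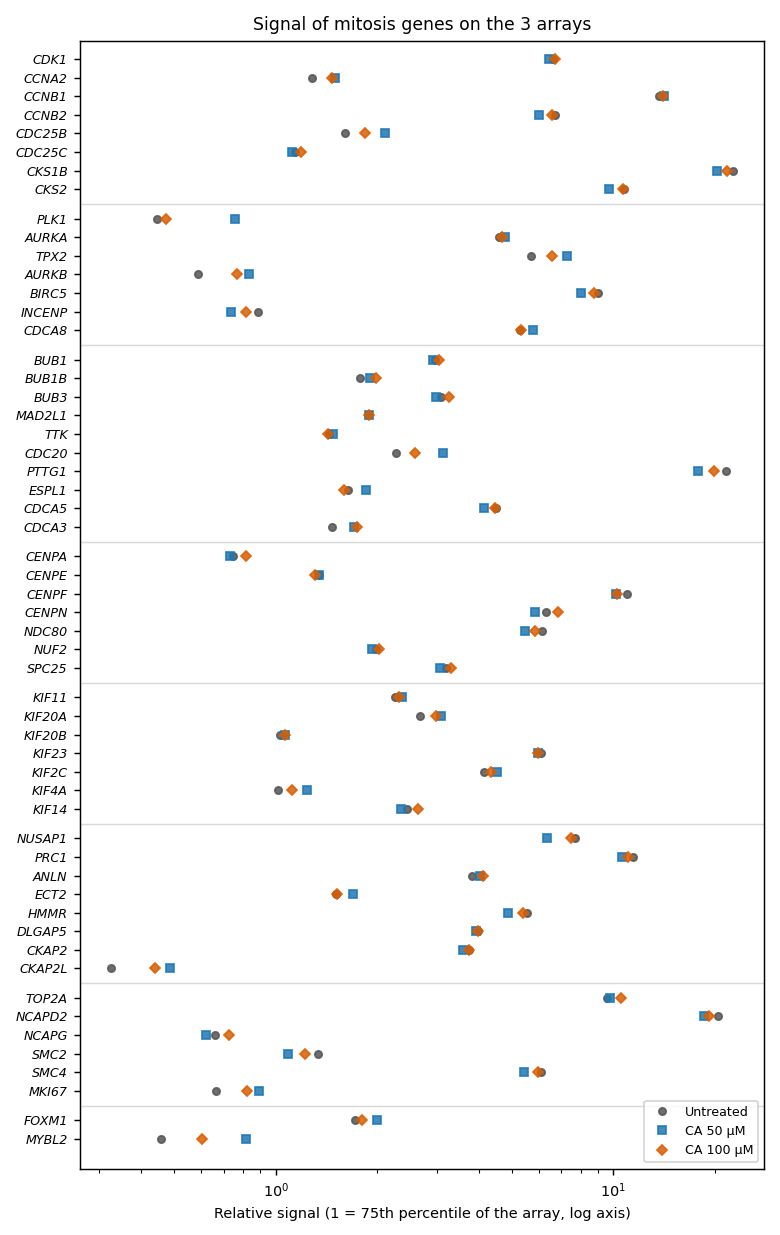
Relative signal of each of the 55 measured mitosis genes on the untreated (circles), CA 50 μM (squares) and CA 100 μM (diamonds) arrays (x axis, log scale, 1 at the 75th percentile of the array), grouped by role in the same order of rows as the ratios. The points of most genes lie close together, and MYBL2, PLK1, AURKB, CKAP2L and MKI67 have their lowest signal on the untreated array.

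Among the mitotic kinases and the chromosomal passenger complex, ratios at CA 50 μM ran from -0.26 for INCENP to 0.76 for PLK1. PLK1, the Polo-like kinase that acts from mitotic entry to cytokinesis, had relative signals of 0.445 in untreated cells, 0.755 at CA 50 μM and 0.473 at CA 100 μM by its brighter probe, so that the CA 50 μM array stood alone. Its dimmer probe, at 19.1, 52.2 and 35 intensity units, followed the same order. The log2 ratio at CA 50 μM was 0.76 by the first and 1.26 by the second probe, and at CA 100 μM 0.087 and 0.64. Both probes were lower at CA 100 μM than at CA 50 μM, by ratios of -0.68 and -0.63. AURKB, the kinase of the passenger complex, which corrects faulty attachments, had 0.590, 0.834 and 0.767, with ratios of 0.50 and 0.38. Of the other members of that complex, INCENP and BIRC5 had ratios below 0 and CDCA8 above 0. INCENP, its scaffold, had 0.885, 0.738 and 0.815, with ratios of -0.26 and -0.12. Survivin (BIRC5), which takes the complex to centromeres, had 9.001, 8.04 and 8.73, with ratios of -0.16 and -0.044. Borealin (CDCA8) had 5.30, 5.79 and 5.34, with ratios of 0.13 and 0.010. AURKA, the spindle pole kinase, was at nearly the same level throughout, at 4.58, 4.78 and 4.69. TPX2, which activates AURKA on the spindle, had 5.71, 7.29 and 6.58, with ratios of 0.35 and 0.21. The CA 100 μM spot of TPX2 lay in a disturbed area. The CA 50 μM ratios of PLK1, AURKB, INCENP and BIRC5 kept their sign under all 10 alternatives of processing, with 0.65 to 1.01 for PLK1, whereas that of AURKA was -0.028 after normexp.

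Of the spindle checkpoint and anaphase genes, 6 of 10 measured were above 0 at each dose, against 43.7% and 42.3% of all genes. By the brightest probe, TTK and ESPL1 were above 0 at CA 50 μM alone, and BUB1 and BUB3 at CA 100 μM alone. Each of these had a ratio near 0, so that no difference between the doses is read from the signs. MAD2L1, which holds back the anaphase-promoting complex, had 1.87, 1.89 and 1.89, and the checkpoint kinase TTK had 1.44, 1.48 and 1.43. BUB3, a checkpoint protein at kinetochores, had -0.044 and 0.086 by its brighter and 0.16 and 0.15 by its dimmer probe. BUB1 and BUB1B, a checkpoint kinase and its relative, had ratios of -0.022 and 0.095 at CA 50 μM and 0.039 and 0.16 at CA 100 μM. CDC20, which activates the anaphase-promoting complex and is the target of the checkpoint, had 2.26, 3.12 and 2.59, with ratios of 0.46 and 0.19. Securin (PTTG1), which keeps separase inactive until anaphase, went the other way, with 21.5, 17.8 and 19.8 and ratios of -0.27 and -0.12. Separase itself (ESPL1) had ratios of 0.18 and -0.037, and sororin (CDCA5), which protects cohesion, had -0.12 and -0.0097. CDCA3, a factor for the degradation of the mitotic inhibitor WEE1, had 1.47, 1.71 and 1.74, with ratios of 0.22 and 0.25.

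At CA 50 μM the kinetochore genes of this list had the smallest SD of the 8 role groups, 0.055. At CA 100 μM the kinesins had a smaller one (0.065 against 0.086). The 27 other kinetochore genes described below ran from -0.41 to 0.80 at CA 50 μM, so that the narrow spread is not general to kinetochore genes. The 7 measured kinetochore genes of this list ranged from -0.16 to 0.0012 at CA 50 μM. Above 0 was 1 of them, against 43.7% of all genes. At CA 100 μM they ranged from -0.093 to 0.12 and 4 were above 0, against 42.3%. The lowest at CA 50 μM was NDC80, the main microtubule binder, with 6.15, 5.49 and 5.85 and ratios of -0.16 and -0.072. The CA 100 μM spot of NDC80 lay in a disturbed area. Its partners NUF2 and SPC25 had -0.049 and -0.064 at CA 50 μM and 0.022 and 0.048 at CA 100 μM. CENPN, a centromere protein, had -0.11 and 0.12 by its brightest probe and -0.16 and -0.043 by its second. CENPE, a kinetochore motor, had 1.34, 1.34 and 1.31. CENPA, the histone H3 variant that marks centromeres, had 0.749, 0.732 and 0.815, with ratios of -0.032 and 0.12. CENPF gave ratios of -0.099 and -0.093 on its brighter probe, against 0.019 and 0.22 on the dimmer one, so that its probes differed in sign.

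Among the kinesins, the motors of the spindle, 5 of 7 were above 0 at CA 50 μM and 6 of 7 at CA 100 μM. The shares over all genes were 43.7% and 42.3%, and signs of ratios near 0 depend on the scaling. KIF4A, a motor on chromosome arms and the midzone, had 1.01, 1.23 and 1.12, with ratios of 0.29 and 0.14, and its second probe gave 0.31 and 0.14. KIF20A, needed for cytokinesis, had 2.68, 3.08 and 2.99, with ratios of 0.20 and 0.16. KIF11, the motor that separates the spindle poles, had ratios of 0.070 and 0.034, and KIF2C, which depolymerizes microtubules, had 0.13 and 0.075. KIF14 had -0.058 and 0.10. KIF20B had 0.048 and 0.045 by its brighter and 0.18 and 0.21 by its dimmer probe. The lowest at CA 100 μM was KIF23, of the central spindle, with -0.031 and -0.028, whereas its dimmer probe gave 0.045 and 0.30.

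In the group of spindle and cytokinesis genes, CKAP2L, a spindle protein, stood apart from the other 7. Its relative signals were 0.326, 0.487 and 0.439, with ratios of 0.58 and 0.43, the latter the highest of the list at CA 100 μM. NUSAP1, which bundles spindle microtubules, had 7.71, 6.37 and 7.46, with ratios of -0.28 and -0.047. PRC1, which bundles the central spindle, had 11.4, 10.6 and 11, with ratios of -0.10 and -0.051, where its CA 100 μM spot lay in a disturbed area. HMMR had -0.19 and -0.047, DLGAP5 -0.020 and -0.0089, and anillin (ANLN), the scaffold of the contractile ring, 0.079 and 0.11. CKAP2, a spindle protein, had -0.061 and 0.0056 by its brighter and 0.13 and 0.44 by its dimmer probe. ECT2, the activator of RhoA at the cell equator, had 0.17 and 0.0099.

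Of the genes of chromosome structure, topoisomerase IIα (TOP2A), which untangles sister chromatids, had 9.59, 9.74 and 10.5, with ratios of 0.023 and 0.13. The proliferation marker MKI67 was lowest on the untreated array, at 0.666, 0.894 and 0.819, with ratios of 0.42 and 0.30. Its second measured probe gave 0.30 and 0.34, and its dimmest was not well above background on any array. The condensin subunits were on the other side at CA 50 μM. SMC2 had 1.33, 1.08 and 1.22, with ratios of -0.30 and -0.12, SMC4 had -0.17 and -0.033, NCAPD2 -0.13 and -0.095, and NCAPG -0.093 and 0.14. The second SMC2 probe, however, gave 0.0032 and 0.15, and the second NCAPD2 probe gave 0.14 and -0.021. The other SMC4 probe had an outlier flag at CA 100 μM and was left out there.

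The transcription factors that switch on these genes were both above 0 at both doses, except FOXM1 at CA 100 μM after normexp. MYBL2, the B-MYB subunit that joins MuvB, had 0.458 in untreated cells, 0.816 at CA 50 μM and 0.606 at CA 100 μM, with ratios of 0.83 and 0.40, so that its CA 100 μM value lay between the others. FOXM1, which acts on the same complex in G2, had 1.72, 2 and 1.80, with ratios of 0.22 and 0.062.

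The doses were also compared directly. Against CA 50 μM, the CA 100 μM array gave the list a median log2 ratio of 0.032, against 0.0022 over all 14666 genes measured, and 33 of 55 genes were above 0 (60.0%), against 50.5%. At least 1.2-fold lower at CA 100 μM were PLK1, MYBL2 and CDC20, which is 3 of 55 (5.45%), against 13.0% of all genes, with ratios of -0.68, -0.43 and -0.27. At least 1.5-fold lower was 1 of 55 (1.82%), PLK1, against 1.53%, and none was 1.2-fold higher, against 6.44%, or 1.5-fold higher, against 1.40%. None was changed 2-fold, where 0.586% of all genes were higher and 0.0886% lower. With normexp the median was -0.14 for the list and 0.19 for all genes. Then 8 of 55 genes were above 0, against 62.0% of all genes, and 12 were at least 1.2-fold lower, against 11.1%. None, PLK1 included, was then at least 1.5-fold lower, with the share of all genes at that size not given. The highest ratios were those of NCAPG and NUSAP1, both at 0.23.

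The probes of 9 genes were printed 10 times, which gives the error of printing and scanning within an array but not that between cultures. A spot ratio takes only spots kept on both arrays, so that its mean can differ slightly from the ratio of the gene. The SD of the log2 ratio between the spots of one probe was 0.033 to 0.15 over these 9 probes at CA 50 μM, with a median of 0.049, against a median of 0.065 over all 815 such probes measured. At CA 50 μM CCNA2 had a ratio of 0.23 ± 0.051 (SD, 10 spots) and was above 0 in 10 of 10 spots. INCENP had -0.26 ± 0.038 (SD, 9 spots), BIRC5 -0.15 ± 0.065 (SD, 8 spots) and CDCA5 -0.13 ± 0.049 (SD, 7 spots), each below 0 in all of these spots. The other 5 genes had spots on both sides of 0, with -0.034 ± 0.050 for CDK1 over 8 spots, 0.044 ± 0.042 for CCNB1 over 9, -0.018 ± 0.040 for CENPE over 8, 0.23 ± 0.15 for KIF20A over 7 and 0.022 ± 0.033 for TOP2A over 9. At CA 100 μM all spots of CCNA2, at 0.20 ± 0.046, of KIF20A, at 0.16 ± 0.068, and of TOP2A, at 0.13 ± 0.046, were above 0, and all of INCENP, at -0.12 ± 0.035, were below it. At both doses the spots of CDK1 and CCNB1 thus lay on both sides of 0, while those of CCNA2 and of INCENP lay on one side. The spread between cultures is not known from these spots.

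**Figure D4:**
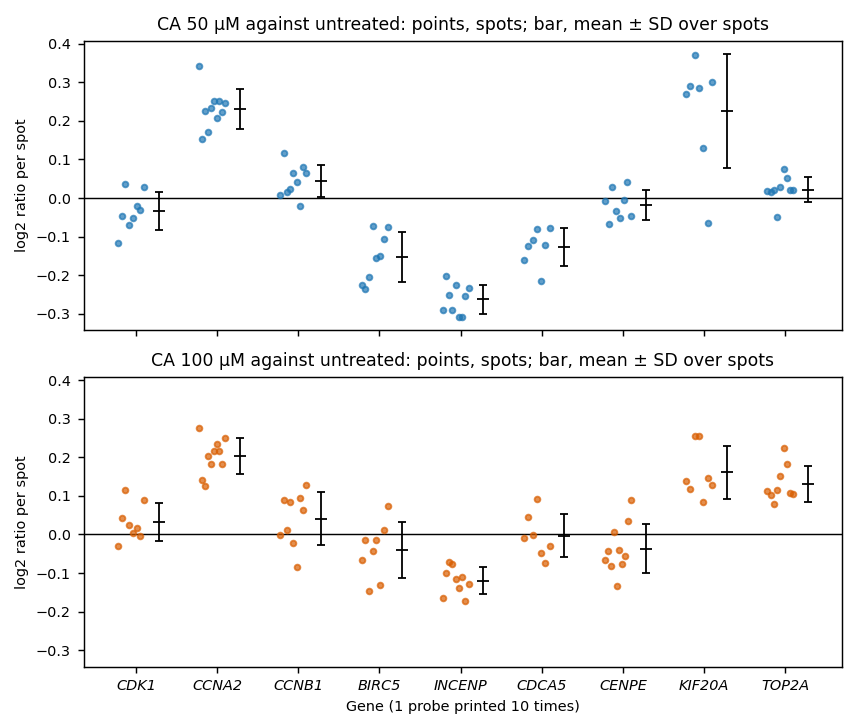
log2 ratio to the untreated array (y axis) of each spot of the 9 mitosis genes (x axis) whose probe was printed 10 times, at CA 50 μM (top) and CA 100 μM (bottom), with points for spots and bars for the mean ± SD over spots of 1 array pair. All CCNA2 spots lie above 0 and all INCENP spots below 0 at both doses, whereas the spots of CDK1, CCNB1 and CENPE lie on both sides of 0.

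A second view of the error came from genes with 2 measured probes. At CA 50 μM the probes of 6 of 14 such genes had ratios of the same sign, and those of 8 did not. The probes of a gene differed by a median of 0.13 and by at most 0.499, in PLK1, and in 11 of 14 genes the dimmer probe had the higher ratio. At CA 100 μM 7 of 13 genes had the same sign, the median difference was 0.16, the largest was 0.55, again in PLK1, and the dimmer probe was higher in 10 of 13. Ratios of this list below about that difference therefore depended on the probe read. The same counts were not made over all genes with several probes. Whether they are particular to the list is thus not known. The genes whose probes were both at least 1.2-fold higher at CA 50 μM were PLK1, MKI67 and KIF4A. MYBL2, CKAP2L, AURKB, CDC20, CDC25B and TPX2 had 1 probe of 1 spot each.

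**Figure D5:**
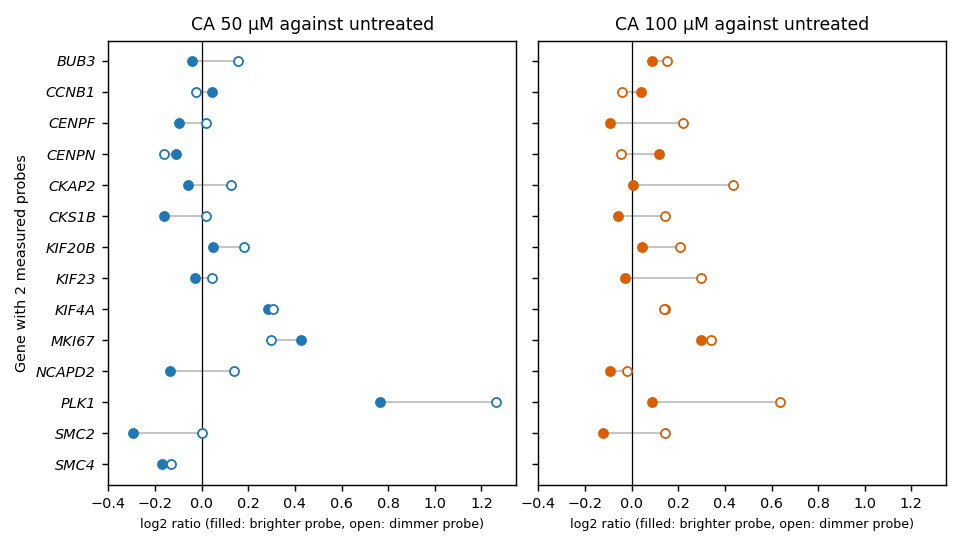
log2 ratio to the untreated array (x axis) by the brighter (filled) and the dimmer (open) measured probe of each mitosis gene with 2 such probes (rows), at CA 50 μM (14 genes, left) and CA 100 μM (13 genes, right). The open point lies right of the filled one in 11 of 14 and 10 of 13 genes, a count not made over all genes. Both PLK1 points lie right of 0.

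Other genes of the pathway were taken from 5 further lists of 106 genes in all, each of which was measured on the arrays. The 32 other genes of G2 and mitosis, such as ASPM and CEP55, had a median of 0.0046 for CA 50 μM and 0.046 for CA 100 μM, with 5 genes at least 1.2-fold higher and 0 lower at each dose, against 16.4% and 16.1% of all genes at CA 50 μM and 8.22% and 10.4% at CA 100 μM. The 27 other kinetochore genes had 0.032 and 0.079, with 6 higher and 3 lower at CA 50 μM and 3 and 0 at CA 100 μM. The 17 subunits and partners of the anaphase-promoting complex had -0.14 and -0.055, with 1 higher and 4 lower at CA 50 μM and 1 and 1 at CA 100 μM. The 15 genes of DREAM, MuvB and NF-Y had -0.068 and 0.037, with 1 higher and 1 lower at each dose. The 15 genes that act on mitotic entry had -0.090 and 0.0072. At CA 50 μM 1 of them was higher and 2 were lower, and at CA 100 μM 1 and 1. These medians are to be read against -0.038 and -0.031 over all genes, and none of the lists held a gene 1.5-fold lower than in untreated cells.

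At least 1.5-fold higher at CA 50 μM were 5 of these 106 genes (4.72%), against 4.15% of all genes measured, so that their number was near that of genes in general. Each was measured by 1 spot. CCNF, a cyclin that serves a ubiquitin ligase, had relative signals of 0.0485, 0.0941 and 0.0754, with ratios of 0.96 and 0.64, and was the only one past 1.5-fold at both doses. E2F4, the E2F factor of DREAM, had 0.119, 0.224 and 0.163, with ratios of 0.92 and 0.46. The APC subunit ANAPC2 had 0.0366, 0.0644 and 0.0472, with ratios of 0.82 and 0.37. The checkpoint protein MAD1L1 had 0.134, 0.234 and 0.167, with ratios of 0.80 and 0.32. The kinetochore protein CENPT had 0.0357, 0.0582 and 0.0369, with ratios of 0.71 and 0.050. All 5 had their lowest value on the untreated array and their highest at CA 50 μM, an order that their choice by the CA 50 μM ratio largely sets. CDKN1A (p21), which inhibits CDKs and through DREAM lowers the transcripts of mitosis, had 0.0342, 0.0491 and 0.0438, with ratios of 0.52 and 0.36. Its value also rests on 1 dim spot, at 36.2, 59.3 and 54.7 intensity units. A link to the mitosis genes was not tested.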

How the data were processed

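RNA of untreated, CA 50 μM and CA 100 μM Huh7 cells was read on 1 array each. The deposited scanner files give the processed intensity of each spot, background-subtracted and detrended by the authors with Agilent Feature Extraction 11.0.1.1. The authors also deposited a table of log2 values whose normalization is not given in the sources used here, which served as an alternative. Spots with an outlier flag were left out, log2 intensity was reduced by the 75th percentile of the gene spots of the array, and spots of a probe were averaged. Well above background means flagged so in at least 50% of its spots. Of 34127 probes, 25771 (75.5%) were named through RefSeq accessions (GRCh38.p14 gene table). An area was called disturbed where, in a window 17 rows by 7 columns wide, at least 5 spots and at least 25% of those of probes dim on the other arrays were well above background and 4-fold brighter.

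The mitosis genes and the other lists were chosen with earlier results of these data known. Named with values on all arrays were the highest and lowest gene of each role group at each dose, genes changed 1.5-fold, genes not measured, genes whose probes differed by over 0.5, genes printed more than once, and CDK1, CCNB1, PLK1, AURKA, AURKB, TOP2A, MKI67 and FOXM1. From the other lists these were genes changed 1.5-fold and CDKN1A, and further members are given by their ratios. With 1 array per group no test was made, and the number of arrays limits the precision. The 10 alternatives were quantile, cyclic loess and median scaling, normexp (offset 50, on median spot and background intensities), the deposited table, no filter on dim probes, the mean over probes, and leaving out saturated, disturbed or background-flagged spots. Python 3.11.15, numpy 2.4.6, pandas 2.3.3, R 4.3.3 and limma 3.58.1 were used, and the calculation was tested on simulated data.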

Additional observations from a re-analysis of the deposited data

How the results depend on the processing

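Of the medians and counts recomputed, 142 stayed within the tolerance set (1.5 times for counts) and 8 did not. With normexp the median log2 ratio of the mitosis genes was -0.14 at CA 100 μM against untreated and -0.14 against CA 50 μM. Against untreated, 15 genes were then at least 1.2-fold lower at CA 100 μM, against 16.6% of all genes. At least 1.2-fold higher were 5, against 47.0%, and 1 of these was at least 1.5-fold higher. Compared with CA 50 μM, 1 was at least 1.2-fold higher, against 46.2% of all genes. At least 1.2-fold lower were 12, against 11.1%, and 0 were at least 1.5-fold lower. For 1.5-fold changes under normexp the shares of all genes are not given. Quantile normalization gave 1 gene at least 1.2-fold higher at CA 100 μM than at CA 50 μM, against 7.51% of all genes. The cause was not tested. Of the ratios of single genes, 775 moved by less and 121 by more than the median SD between spots of a probe. No paired analysis was possible because each group holds 1 array, and for the same reason no array could be left out.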
